A study of Mus musculus with 28 samples.

Results

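The genes of the mouse mitochondrial genome were the 37 genes, of 37974 in the single-cell table, whose symbol begins with mt-. They are 13 protein genes, 2 ribosomal RNA genes and 22 transfer RNA genes, all on the mitochondrial chromosome (chrM of GRCm38). The study asked how neural stem and progenitor cells of the SVZ, the wall of the lateral ventricle in the mouse forebrain, differ between young and aged C57BL/6 mice, with no other allele or agent given in the labels. Cells taken at 1 month or 24 months of age were sorted by size and complexity, picked by hand, kept where qPCR on their Smart-seq2 cDNA detected marker genes, among them Dcx, Dlx2, Gfap and Prom1, and sequenced. The study then named them from their own transcriptomes as Prom1+ (3 cells at 1 month and 3 at 24 months), Gfap+ (2 and 5) or Dlx2+/Dcx+ (5 and 4). SVZ tissue was taken at 3 weeks (3 samples) or 18 months (3 samples). No animal is named for any of the 22 cells, so each subpopulation at each age counts as 1 sample, cells are not replicates, and no test was made between groups of cells. The tissue table lists 0 of the 37 genes, so the tissue bears only on nuclear partner genes here.

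The mitochondrial genome is a small circular DNA that each cell carries in many copies. Its protein genes encode subunits of the respiratory chain and of the ATP synthase, and its rRNA and tRNA genes serve the translation of those proteins inside the mitochondrion. Both strands are transcribed into long precursors in which tRNAs lie between the other genes, and cleavage at the tRNA ends releases the mature RNAs. Most genes lie on one strand, called plus in the annotation. mt-Nd6 is the only protein gene on the minus strand, and its precursor also spans the complement of the plus-strand genes. Smart-seq2 starts cDNA synthesis at poly(A) stretches, and mature tRNAs carry no poly(A) tail. The libraries did not mark strand, so fragments of a gene and of the complementary RNA at the same place cannot be told apart.

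The tRNA genes that carried most tRNA fragments all lie on the minus strand, and their sequences are shown first because the results on short RNAs turn on them. Sequences are from the GRCm38 mitochondrial chromosome at GENCODE M21 positions, 5′ to 3′ on the gene's own strand, and capitals mark bases shared with a neighbouring gene. mt-Ts1 (a serine tRNA, chrM:6870-6938, minus) shares its last bases with the end of mt-Co1 on the opposite strand. mt-Tq (glutamine, chrM:3772-3842, minus) shares its last bases with mt-Ti on the opposite strand. mt-Te (glutamate, chrM:14071-14139, minus) lies next to mt-Nd6 on the same strand, and mt-Tp (proline, chrM:15356-15422, minus) lies beside mt-Tt.
mt-Ts1: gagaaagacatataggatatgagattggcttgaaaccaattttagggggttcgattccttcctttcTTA
mt-Tq: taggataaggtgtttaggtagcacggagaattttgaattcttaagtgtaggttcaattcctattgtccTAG
mt-Te: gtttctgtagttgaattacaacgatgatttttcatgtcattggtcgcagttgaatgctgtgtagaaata
mt-Tp: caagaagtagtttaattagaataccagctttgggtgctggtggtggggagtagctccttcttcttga

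The 4 minus-strand genes mt-Ta (alanine, chrM:5018-5086), mt-Tn (asparagine, chrM:5089-5159), mt-Tc (cysteine, chrM:5192-5257) and mt-Ty (tyrosine, chrM:5260-5326) follow each other between mt-Nd2 and mt-Co1, and they are shown because their fragments lay mostly in 3 cells. These 4 were chosen for display after their values were seen.
mt-Ta: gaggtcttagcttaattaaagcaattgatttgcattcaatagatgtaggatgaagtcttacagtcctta
mt-Tn: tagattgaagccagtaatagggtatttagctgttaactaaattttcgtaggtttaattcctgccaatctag
mt-Tc: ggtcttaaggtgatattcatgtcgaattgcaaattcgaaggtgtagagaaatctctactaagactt
mt-Ty: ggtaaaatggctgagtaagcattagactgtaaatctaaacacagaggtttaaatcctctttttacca
The plus-strand genes mt-Th (histidine, chrM:11546-11612) and mt-Tl2 (leucine, chrM:11671-11741) are shown for contrast, since no cell had a fragment in either.
mt-Th: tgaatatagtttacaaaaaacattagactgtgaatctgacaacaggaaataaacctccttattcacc
mt-Tl2: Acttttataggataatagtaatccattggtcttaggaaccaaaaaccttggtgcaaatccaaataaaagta

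The deposited values are FPKM, fragments scaled to a gene's effective length and to the mapped fragments of the cell. For these short and simple genes the number of fragments behind each value could be recovered, because low values were whole multiples of a common step. With the effective length described in the processing notes, 336 of 336 member values under 3000 fragments came out whole within 0.02, and the other values of the 425 above 0 were too high for this check. The implied totals ranged from 473585 fragments (Gfap+ 1 month cell 1) to 7042750 (Prom1+ 24 months cell 1), with a median of 2507910. They are estimates, and fragments are not independent molecules, so counts of fragments carry counting error only. An effective length near 0 makes FPKM a poor scale for tRNA genes. 1 fragment of mt-Ts1 was worth 562 to 8352 FPKM depending on the cell, while 1 fragment of mt-Co1 was worth 0.106 to 1.57 FPKM.

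The 37 genes took 13.5% to 35.9% of a cell's summed FPKM (median 20.9%) but 0.873% to 5.14% of its fragments (median 3.18%). The tRNA genes held 11.7% to 34% of summed FPKM and 0.0027% to 0.0156% of fragments. Their large share of FPKM thus came with the smallest share of fragments. The protein genes held 0.511% to 1.16% of summed FPKM (median 0.829%) and 0.328% to 1.54% of fragments (median 0.714%). The rRNA genes held 0.169% to 2.49% of summed FPKM (median 1.72%) and 0.121% to 3.85% of fragments (median 2.47%). The lowest of these came from the 3 Prom1+ cells of 1 month, where mt-Rnr2 is listed at 0, and in the other 19 cells the shares were 1.17% to 2.49% and 1.41% to 3.85%. By fragments the rRNA genes were therefore the most abundant class in the median cell, and the tRNA genes the least.

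**Figure D1:**
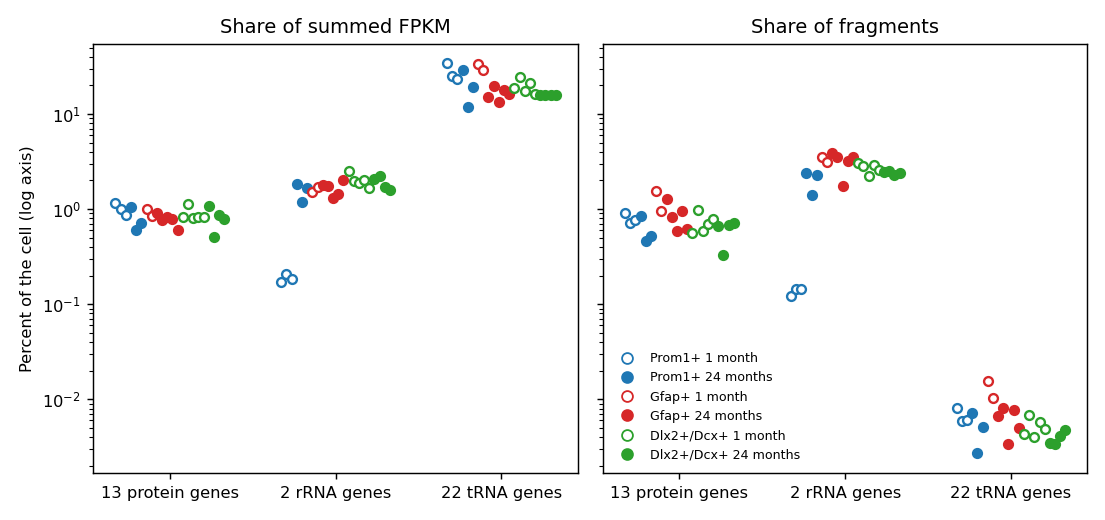
Share of each cell's summed FPKM and of its fragments (percent, log axis) in the protein, rRNA and tRNA genes of the mitochondrial genome, 1 point per cell, coloured by subpopulation, open at 1 month and filled at 24 months. The tRNA genes hold 11.7% to 34% of FPKM and at most 0.0156% of fragments, and the 3 lowest rRNA points are the Prom1+ cells of 1 month, where mt-Rnr2 is listed at 0.

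The protein genes' share of summed FPKM, by cell, was 0.868%, 1.01% and 1.16% in Prom1+ cells of 1 month, from lowest to highest, and 0.600%, 0.708% and 1.06% at 24 months. In Gfap+ cells it was 0.837% and 1.01% at 1 month, and at 24 months the lowest, median and highest were 0.601%, 0.782% and 0.918%. In Dlx2+/Dcx+ cells those 3 values were 0.801%, 0.829% and 1.14% at 1 month, then 0.511%, 0.826% and 1.08% at 24 months. The ages overlapped in all 3 subpopulations. With tRNA and rRNA genes out of the denominator they did not in Gfap+ cells, at 1.21% and 1.55% at 1 month and 0.735% to 1.11% at 24 months. The order of the groups depended on the denominator: by share of fragments the median of Gfap+ cells at 1 month was 1.25% and that of Prom1+ cells 0.770%.

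Gfap, Dlx2, Dcx and Prom1 restate how the cells were chosen and named, so the marker levels are a description and no independent check of the labels. Gfap, the intermediate filament of astrocytes and neural stem cells, was at 48.7 to 194 FPKM in every Gfap+ cell, at 0 in every Prom1+ cell and at 0.332 or less in Dlx2+/Dcx+ cells. The neuroblast list (9 genes) summed to 1678 to 6564 FPKM in Dlx2+/Dcx+ cells and 1.22 to 480 in the others. The list for Prom1+ cells (5 genes) summed to 194 to 1146 FPKM in Prom1+ cells and 0.362 to 402 in the others. The ependymal list was at 11.6 FPKM or less in every cell. The oligodendrocyte list (9 genes, among them the myelin gene Mbp) summed to 25840.3 to 65539 FPKM in the 7 Gfap+ cells and 5.70 to 349.6 FPKM in the other cells, with no gene of the list at 0 in all cells of either Gfap+ group. Every comparison with Gfap+ cells below therefore sets cells with high myelin RNA against cells with little, and the part of that in the results was not tested.

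Fragments in tRNA genes lay mostly in genes annotated on 1 strand, the minus strand. The strand of the RNA behind them was not marked. The 8 minus-strand tRNA genes were above 0 in 5 to 22 of the 22 cells (median 10.5), and the 14 plus-strand genes in 0 to 3 (median 2). mt-Ts1 was above 0 in 22 cells, mt-Tq in 21, mt-Tp in 16 and mt-Te in 12. mt-Tn was above 0 in 9 cells, mt-Tc in 7, mt-Ta and mt-Ty in 5 each. Of the plus-strand genes none exceeded 3 cells, and mt-Th and mt-Tl2 were at 0 in all. The ranges of the 2 strands did not overlap.

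Of all tRNA fragments, 3572 (96.1%) lay in minus-strand genes and 146 in plus-strand genes. mt-Ts1 alone gave 3035, and without it the minus-strand genes held 537, or 78.6% of the rest. Each of the 22 cells had more minus-strand than plus-strand tRNA genes above 0, although the plus strand carries more of these genes. Without mt-Ts1, 16 of 22 cells had more fragments in minus-strand than in plus-strand tRNA genes. No plus-strand tRNA gene had a fragment in 8 cells. The genes are of like length on both strands, 66 to 71 bases on the minus strand and 59 to 75 on the plus strand. When a gene was counted only from 2 fragments, 5 minus-strand and 0 plus-strand genes were present in 5 or more cells. Without the 3 Prom1+ cells of 1 month, minus-strand genes were above 0 in 2 to 19 cells (median 7.5) and plus-strand genes in 0 to 3 (median 1.5), so those ranges then overlapped.

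**Figure D2:**
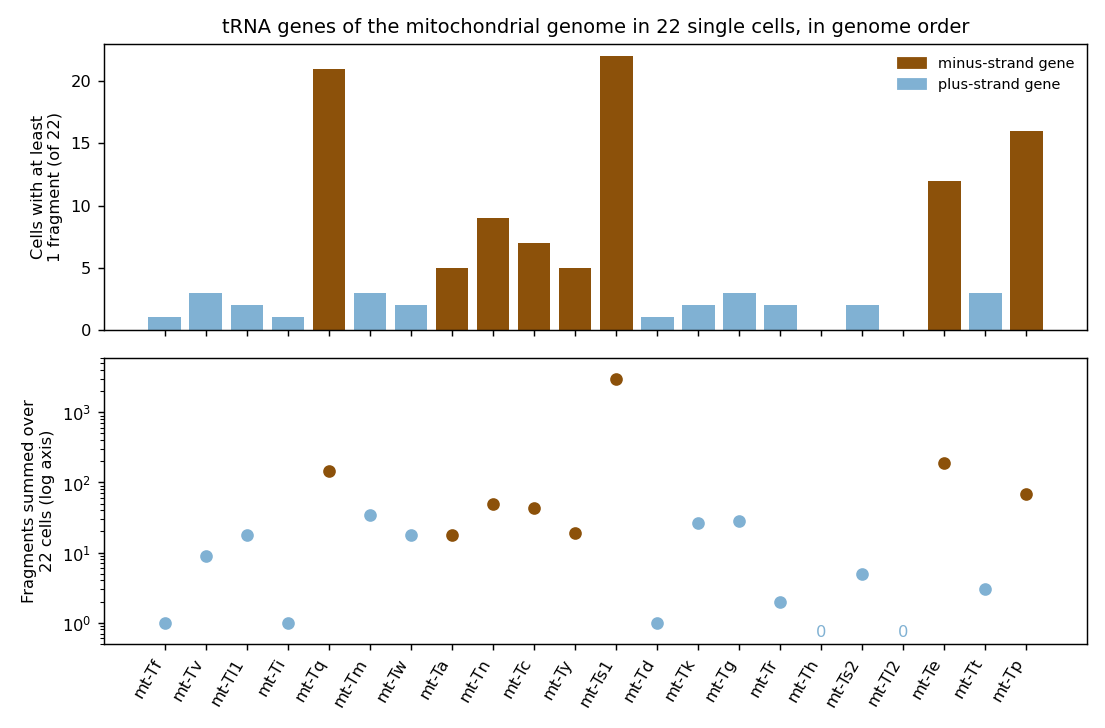
Number of the 22 cells with at least 1 fragment (top) and summed fragments over the 22 cells (bottom, log axis) for each of the 22 tRNA genes. Genes of the minus strand are brown and those of the plus strand light blue. Minus-strand genes reach 5 to 22 cells and plus-strand genes at most 3.

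mt-Ts1 was the only tRNA gene with fragments in every cell. It held 488, 202 and 196 fragments in the Prom1+ cells of 1 month and 458, 98 and 144 in those of 24 months. Gfap+ cells held 62 and 164 at 1 month and 82, 84, 81, 86 and 65 at 24 months. Dlx2+/Dcx+ cells held 97, 111, 116, 127 and 84 at 1 month and 55, 44, 84 and 107 at 24 months. The 4 highest counts were in Prom1+ cells, which were among the deepest. In FPKM the gene ranged from 65120 to 517821 (median 171696), the highest value in the shallowest cell, and it took 7.47% to 30.2% of a cell's summed FPKM (median 15.5%) from 0.00165% to 0.0131% of its fragments. It made up 48.4% to 97.6% of a cell's tRNA fragments (median 83.7%).

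The level of mt-Ts1 was most like that of mt-Co1, the catalytic core subunit of complex IV whose gene it overlaps on the opposite strand (the bases TTA in capitals above). Per 100 mt-Co1 fragments there were 1.53 to 3.72 mt-Ts1 fragments (median 2.58), a 2.43-fold range. With depth and length scaled out, mt-Co1 itself ranged 3.32-fold, from 801 to 2658 FPKM. On log2(fragments per 1000000 + 1) the correlation over the 22 cells was r = 0.857 (rho = 0.862), against r = 0.68 for the next protein gene, mt-Nd4. Within subpopulations r was 0.971 over 6 Prom1+ cells, 0.845 over 7 Gfap+ cells and 0.560 over 9 Dlx2+/Dcx+ cells. Without the 2 cells farthest from the median of mt-Co1 these were 0.963, 0.579 and -0.21, so in Dlx2+/Dcx+ cells the relation rested on those cells. The points share their libraries and their totals, and the correlations are descriptions.

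By cells with fragments and by median FPKM mt-Tq and mt-Tp came next, at far lower numbers. By summed fragments mt-Te, with 192, came before both. mt-Tq held 0 to 25 fragments per cell (median 5, 147 in all), with the highest count in Gfap+ 1 month cell 2 and the 0 in Gfap+ 24 months cell 3. mt-Tp held 0 to 11 (median 3, 68 in all). Their median FPKM of 5807 and 4727 exceeded that of every protein gene, although they rested on so few fragments.

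mt-Te was found mostly where mt-Nd6, its neighbour on the same strand, was high. mt-Te held 9, 7 and 6 fragments in Prom1+ cells of 1 month, where mt-Nd6 held 873, 244 and 264. At 24 months the same pair held 31, 0 and 17 against 1431, 24 and 475. Gfap+ cells held 0 and 17 mt-Te fragments at 1 month against 1 and 243 of mt-Nd6. At 24 months they held 0, 9, 0, 0 and 1 against 10, 559, 1, 2 and 12. In Dlx2+/Dcx+ cells of 1 month mt-Te held 0, 51, 3, 10 and 0 fragments and mt-Nd6 2, 730, 185, 628 and 8. At 24 months mt-Te held 0, 31, 0 and 0 and mt-Nd6 202, 306, 0 and 127. In the 12 cells with mt-Te above 0, mt-Nd6 held 12 to 1431 fragments (median 390.5), and 11 of them had at least 100. In the 10 cells with mt-Te at 0, mt-Nd6 held 0 to 202 (median 5), and 2 had at least 100. The cells with mt-Te above 0 were also deeper, with totals of 1603540 to 7042750 against 473585 to 3819390, and the part of depth was not tested. The correlation was r = 0.775 (rho = 0.851) over 22 cells, and 0.889, 0.941 and 0.672 within Prom1+, Gfap+ and Dlx2+/Dcx+ cells, which again share their libraries. Without the 2 cells farthest from the median of mt-Nd6 these 3 were 0.585, 0.561 and 0.658, so the values in Prom1+ and Gfap+ cells rested in part on those cells.

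**Figure D3:**
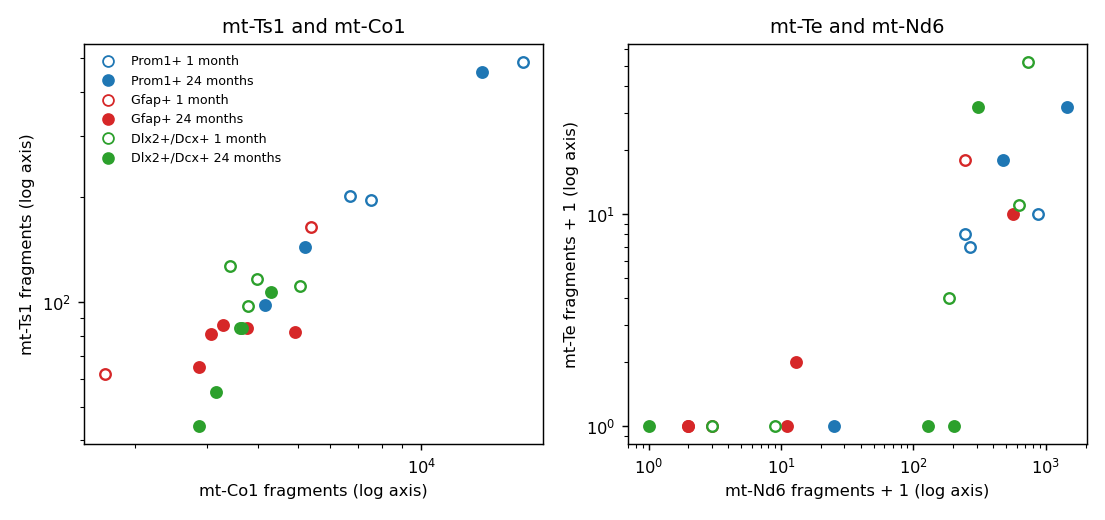
Fragments of mt-Ts1 against mt-Co1 and, with 1 added to each count, of mt-Te against mt-Nd6 (log axes), not scaled to depth. Each cell is 1 point, coloured by subpopulation, open at 1 month and filled at 24 months. mt-Ts1 lies at 1.53 to 3.72 fragments per 100 of mt-Co1, and cells with mt-Te at 0 lie mostly at low mt-Nd6.

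The block of mt-Ta, mt-Tn, mt-Tc and mt-Ty separated the young Prom1+ cells from the rest. Together the 4 genes held 58 fragments in 1 of these cells and 23 in each of the other two. In Prom1+ cells of 24 months they held 0, 1 and 0, at totals of 7042750, 3819390 and 3287200 fragments, and elsewhere 0 to 8. The 3 young Prom1+ cells did not overlap with any other cell. The totals of the 3 young cells were in the upper part of the range. The pattern was noticed in these values, and the part of depth in it was not tested.

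The rRNA genes gave the most fragments, and they split the cells in the same place. mt-Rnr1, the small-subunit rRNA, was found in every cell, at 908 to 5834 FPKM (median 2408). mt-Rnr2, the large-subunit rRNA, was listed at 0 in all 3 Prom1+ cells of 1 month. In Prom1+ cells of 24 months it stood at 16031, 9645 and 15711 FPKM. In Gfap+ cells it stood at 24234 and 20119 FPKM at 1 month and 11956 to 24783 at 24 months, and in Dlx2+/Dcx+ cells at 14866 to 21378 FPKM at 1 month and 15734 to 17110 at 24 months. Behind the values in these 19 cells were 15815 to 155584 fragments, and no fold against the cells listed at 0 is given.

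In the same 3 young Prom1+ cells mt-Rnr1, separated from mt-Rnr2 only by mt-Tv, stood at 1605, 1936 and 1945 FPKM, inside the range of the other cells. Of 72 genes above 100 FPKM in all 19 other cells, mt-Rnr2 was the only one listed at 0 in any of these 3. Actb, the cytoplasmic actin that nearly every cell makes, had a listed 0 in each of the 6 Prom1+ cells and 10900 to 29740 FPKM in the other 16, so a listed 0 in this table need not be an absence of fragments. The 0 of mt-Rnr2 is thus given as listed. Whether these 3 libraries lack the RNA or the table lacks the value cannot be told apart here. In the 19 cells the FPKM ratio of mt-Rnr2 to mt-Rnr1 was 4.25 to 18.9 (median 7.18), and mt-Rnr2 had 2.17 to 7.13 times the fragments of all protein genes together.

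**Figure D4:**
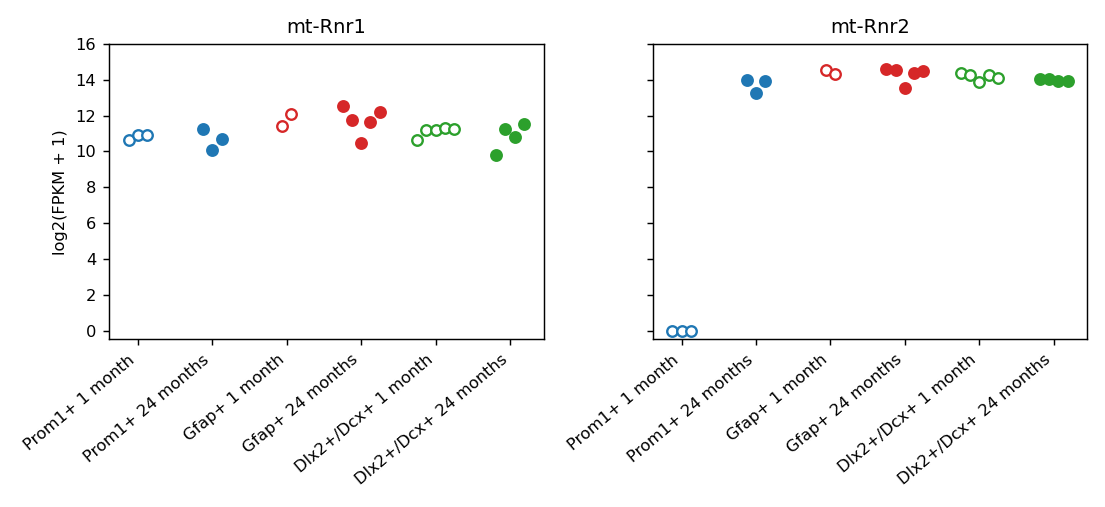
Level as log2(FPKM + 1) of mt-Rnr1 and mt-Rnr2 in each of the 22 cells by subpopulation and age, open at 1 month and filled at 24 months. mt-Rnr1 is present in every cell, and mt-Rnr2 is listed at 0 in the 3 Prom1+ cells of 1 month and at 9645 FPKM or more elsewhere.

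Among the protein genes mt-Co1 had the highest median over the 22 cells (1208 FPKM), followed by mt-Co3 (1187), mt-Nd1 (1061), mt-Cytb (1045) and mt-Co2 (990). mt-Cytb is the core of complex III, and mt-Nd1 is a membrane subunit of complex I. The ATP synthase gene mt-Atp6 stood at 918 FPKM. Then came mt-Nd4 (679), mt-Atp8 (671), mt-Nd5 (595), mt-Nd3 (299), mt-Nd2 (198) and mt-Nd6 (181), with mt-Nd4l at 0. Neighbours in this order were often not separated: a gene was above the next in 11 to 13 of 22 cells from mt-Co3 to mt-Nd4, and again for mt-Nd3 and mt-Nd2. mt-Co1 was above mt-Co3 in 17 cells, mt-Atp8 above mt-Nd5 in 17 and mt-Nd5 above mt-Nd3 in 16. The 6 complex I genes other than mt-Nd1 thus filled ranks 7 and 9 to 13, although these subunits come from the same precursor as the others except for mt-Nd6.

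**Figure D5:**
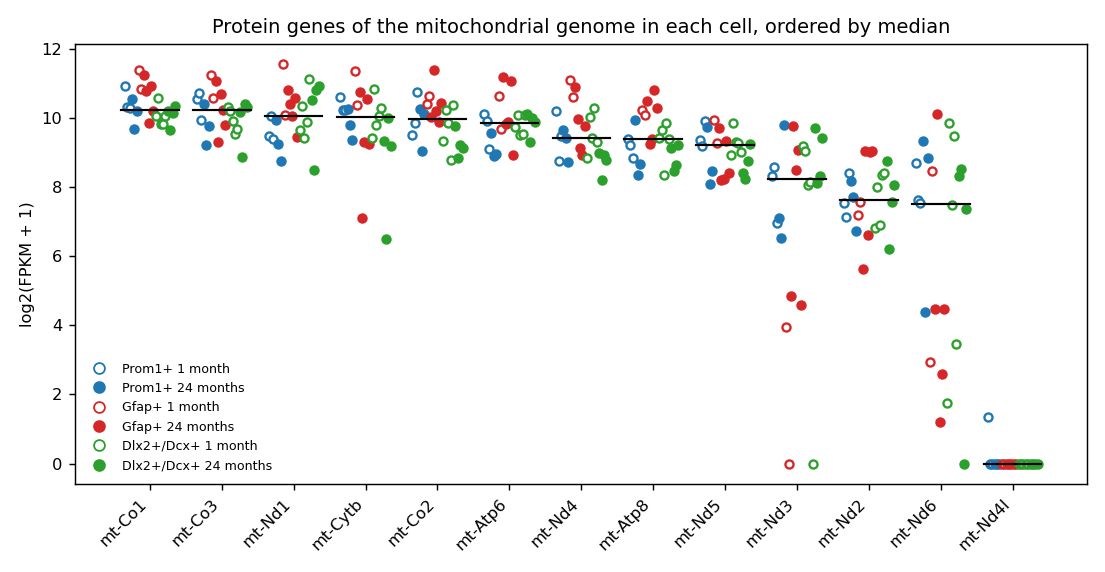
Level as log2(FPKM + 1) of the 13 protein genes in each of the 22 cells, coloured by subpopulation, open at 1 month and filled at 24 months. The median over all cells is a black line. Medians run from 1208 FPKM for mt-Co1 to 181 for mt-Nd6, with mt-Nd4l at 0 in 21 cells, and mt-Nd3, mt-Nd6 and mt-Cytb spread the most.

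mt-Nd4l, a small complex I subunit, had 1 fragment in 1 cell, Prom1+ 1 month cell 1 (1.53 FPKM). Its end overlaps mt-Nd4, with which it is read from 1 shared RNA, as mt-Atp8 is with mt-Atp6. Its 1 fragment contrasts with mt-Atp8, which is shorter and was found in every cell from 17 to 206 fragments. mt-Atp6 stood at 0.389 to 2.57 times the FPKM of mt-Atp8 (median 1.43). The last 60 bases of 3 of the protein genes that overlap a neighbour are shown, on the plus strand, with the shared bases in capitals. mt-Atp8 (chrM:7910-7969) shares 43 with mt-Atp6, mt-Nd4l (chrM:10114-10173) shares 7 with mt-Nd4, and mt-Nd5 (chrM:13506-13565) shares 14 with mt-Nd6 on the opposite strand. How the authors' counting shared fragments between overlapping genes is not given in the sources used here, so the values of these pairs are uncertain. Nuclear copies of mitochondrial sequence add the same doubt for all members.
mt-Atp8: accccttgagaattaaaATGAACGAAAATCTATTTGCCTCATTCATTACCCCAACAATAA
mt-Nd4l: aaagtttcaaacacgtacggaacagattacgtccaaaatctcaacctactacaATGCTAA
mt-Nd5: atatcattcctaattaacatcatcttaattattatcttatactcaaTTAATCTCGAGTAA

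The steadiest protein genes were mt-Co1 (801 to 2658 FPKM, 3.32-fold) and mt-Nd5 (271 to 972, 3.59-fold). The widest spread lay in mt-Cytb, mt-Nd3 and mt-Nd6. mt-Cytb ranged 29.4-fold, from 88.8 FPKM in Dlx2+/Dcx+ 24 months cell 2 to 2610.2 in Gfap+ 1 month cell 1, and Gfap+ 24 months cell 2 was also low at 136 FPKM. Even these low values rested on 223 and 205 fragments.

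mt-Nd3, a membrane subunit of complex I, held 311, 217 and 82 fragments in Prom1+ cells of 1 month and 140, 50 and 419 at 24 months. In Gfap+ cells it held 1 and 0 at 1 month and 6, 203, 127, 98 and 6 at 24 months. In Dlx2+/Dcx+ cells it held 225, 190, 125, 113 and 0 at 1 month and 246, 108, 112 and 247 at 24 months. Both young Gfap+ cells and 1 young Dlx2+/Dcx+ cell were thus at or near 0, and 2 of the 5 older Gfap+ cells held only 6 fragments each. Of these, Gfap+ 1 month cell 1 was the shallowest of all cells, and the part of depth was not tested.

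mt-Nd6, the minus-strand gene, moved between near 0 and high within groups, as its counts beside mt-Te above show. In FPKM it was at 1107 in Gfap+ 24 months cell 2 and at 1.29 to 21.1 in the other 4 of that group. The ratio of mt-Nd5 to mt-Nd6, whose ends overlap on opposite strands, ran from 0.265 to 232 in the 21 cells with mt-Nd6 above 0 (median 3.53). mt-Nd6 was at 12 fragments or fewer in 5 Gfap+ and 3 Dlx2+/Dcx+ cells, of both ages, and in no Prom1+ cell.

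Protein genes varied together only in part. Over the 22 cells, on log2(fragments per 1000000 + 1), the highest pair correlations were mt-Nd1 with mt-Atp6 (r = 0.745), mt-Nd5 with mt-Cytb (0.724) and mt-Co1 with mt-Atp8 (0.688). The lowest was mt-Nd3 with mt-Nd4 (-0.54). The median correlation of a gene with the other expressed protein genes was 0.543 for mt-Co1 and 0.514 for mt-Co3, near 0 for mt-Nd2 (0.041) and mt-Nd6 (0.021), and -0.26 for mt-Nd3. These cells share totals and subpopulations, and the values are descriptions.

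Age differences were taken as the difference of mean log2(FPKM + 1), 24 months minus 1 month, within a subpopulation, over the 11332 genes with FPKM above 1 in at least 3 cells. Of the 37 members 26 are among these, 12 of them protein genes (all but mt-Nd4l). With 1 sample per group these are values with no test, and past the fold means a difference above 1 or below -1.

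In Prom1+ cells all 12 protein genes had lower means at 24 months, against 48% of all expressed genes, with a median difference of -0.35 against 0 for all. They ranged from -0.72 (mt-Nd5) to -0.15 (mt-Nd2 and mt-Nd3). None was past the fold, where 22% of all genes lay above 1 and 24% below -1. None had ages that did not overlap, where 3.9% of genes did so higher and 4.1% lower. Leaving out 1 cell turned 6 of the 12 positive: mt-Nd2 (to 0.25), mt-Co2 (0.15), mt-Atp8 (0.16), mt-Nd3 (0.49), mt-Nd4 (0.14) and mt-Nd6 (1.14 without Prom1+ 24 months cell 2). Prom1+ 24 months cell 1 lay at the level of the young cells for the gene that differed most, with 847.7 FPKM of mt-Nd5 against 270.7 and 349.8 in the other two. mt-Rnr1 differed by -0.15. The members share precursor RNAs and libraries, so 12 genes are not 12 observations.

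In Gfap+ cells 9 of 12 protein genes had lower means at 24 months (37.6% of all genes), with a median of -0.54 against 0.16 for all. mt-Cytb (-1.48), mt-Nd6 (-1.14) and mt-Nd4 (-1.10) were below -1, as were 19.6% of all genes. mt-Nd3 was higher by 5.36, from 1 and 0 fragments to 6 to 203, and was the only protein gene whose ages did not overlap (2.8% of all genes higher and 3.1% lower). Above 1 lay 29.6% of all genes. With TPM scaling 7 of 12 were lower, 2 of them below -1, and the median was -0.38 (all genes 0.17), while scaled to the sum outside the mitochondrial genome 10 of 12 were lower. The difference in mt-Nd3 was 3.38 without Gfap+ 1 month cell 2 and 7.35 without cell 1. The 1 fragment of young cell 1 stood for 2.11 per 1000000 (95% Poisson interval 0.0535 to 11.8, for counting error only), which overlaps with the 3.99 (1.46 to 8.69) and 3.32 (1.22 to 7.23) of the 2 lowest older cells. The difference in mt-Nd6 turned to 1.62 without Gfap+ 1 month cell 2, that in mt-Cytb was -0.90 without Gfap+ 24 months cell 2, and that in mt-Nd4 was -0.85 without Gfap+ 1 month cell 1. Only 2 cells stand for the young group.

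In Dlx2+/Dcx+ cells 7 of 12 had lower means at 24 months (55.8% of all genes), with a median of -0.21 against -0.14 for all. mt-Cytb differed by -1.33, with 27.1% of all genes below -1, and mt-Nd3 by 2.02, with 16.6% above 1. Without Dlx2+/Dcx+ 24 months cell 2 mt-Cytb stood at -0.57, and without Dlx2+/Dcx+ 1 month cell 5 mt-Nd3 stood at 0.30. No protein gene had ages that did not overlap (0.644% of all genes higher and 1.08% lower). With TPM scaling 6 of 12 were lower, with a median of -0.11 against -0.12 for all. The median turned to 0.056 without Dlx2+/Dcx+ 1 month cell 2. Beside these differences, the astrocyte list (6 genes) summed to 20.3 to 579 FPKM (median 173) in Dlx2+/Dcx+ cells of 1 month and 0.0747 to 12.9 (median 5.44) at 24 months, without overlap, and its part in them was not tested.

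Between subpopulations the cells had been named from the same transcriptomes, so these values are descriptions too. On FPKM as deposited, Gfap+ cells had the higher protein-gene means: the median difference from Prom1+ cells was 0.49 at 1 month (all genes -0.37) and 0.44 at 24 months (all genes -0.09), but these turned to -0.22 and -0.11 with TPM scaling (all genes -0.57 and -0.28) and to -0.12 and -0.18 when FPKM was scaled to the sum outside the mitochondrial genome (all genes -0.64 and -0.35). The difference from Dlx2+/Dcx+ cells was 0.76 at 1 month (all genes -0.37) and 0.32 at 24 months (all genes 0.05), which became 0.13 and -0.25 with TPM scaling (all genes -0.52 and -0.03) and 0.36 and -0.24 with the other scaling (all genes -0.51 and -0.03). As deposited, the value at 24 months turned to -0.052 without Dlx2+/Dcx+ 24 months cell 2. Beside them, summed FPKM outside the mitochondrial genome was 857870 to 1406260 in Gfap+ cells, 612737 to 815563 in Prom1+ cells and 702979 to 977415 in Dlx2+/Dcx+ cells. The sign thus turned with the scaling in 3 of these 4 differences. Relative to the median of all genes the protein genes stayed above it under each scaling in 3 of the 4, and the difference from Dlx2+/Dcx+ cells at 24 months went from above to below it.

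Against Prom1+ cells at 1 month, Gfap+ cells had mt-Nd4 (1.36), mt-Nd1 (1.19) and mt-Atp8 (1.02) higher without overlap on FPKM as deposited. Of all genes 10.4% did so, and 23.7% lay above 1. With TPM scaling 0 protein genes were above 1. mt-Nd3 was lower without overlap (-5.98), as were 16% of all genes, and mt-Nd6 was also below -1 (-2.25), as were 38.4%, but mt-Nd6 turned to 0.51 without Gfap+ 1 month cell 1 and mt-Nd3 was -3.99 without cell 2. Without 1 cell mt-Nd1 stood as low as 0.46 and mt-Atp8 0.86. At 24 months mt-Atp8 (1.06) and mt-Atp6 (1.03) were above 1 (26.6% of all genes) and mt-Nd6 below -1 (-2.96, 31.9% of all genes), and no protein gene stood without overlap (4.99% of all genes higher and 5.84% lower). TPM scaling again left 0 above 1, and without 1 cell mt-Atp8 stood as low as 0.74 and mt-Atp6 0.78.

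Against Dlx2+/Dcx+ cells at 1 month, Gfap+ cells had mt-Nd4 (1.27), mt-Co1 (1.04), mt-Co3 (0.99), mt-Atp8 (0.83) and mt-Co2 (0.80) higher without overlap on FPKM as deposited (7.93% of all genes, with 7.75% lower), and 24.7% of all genes lay above 1. Without Gfap+ 1 month cell 1 mt-Co1 was at 0.77. mt-Nd3 was the 1 gene below -1 (-4.90, 36.4% of all genes), at -2.92 without Gfap+ 1 month cell 2. At 24 months mt-Atp8 (1.18) and mt-Co2 (1.15) were higher without overlap (4.81% of all genes, with 2.82% lower) and mt-Nd4 (1.02) also lay above 1 (31.6% of all genes). mt-Nd3 (-1.55) and mt-Nd6 (-1.48) lay below -1 (25.6% of all genes). Each of these 5 lost the fold without 1 cell: mt-Nd3 stood at -0.86 without Gfap+ 24 months cell 5, mt-Nd6 at -0.64 without cell 3, mt-Nd4 at 0.73 without cell 1, mt-Co2 at 0.90 without cell 2 and mt-Atp8 at 0.99 without cell 4. Beside these values at 24 months, the astrocyte list summed to 100.2 to 2556 FPKM in Gfap+ cells and 0.0747 to 12.9 in Dlx2+/Dcx+ cells, without overlap, and its part in them was not tested. A neuron list (6 genes) summed at 1 month to 0 in Gfap+ cells and 125 to 316 FPKM in Dlx2+/Dcx+ cells. At 24 months it summed to 0.348 to 1.25 and 76.8 to 266 FPKM. The subpopulations did not overlap in it at either age, and its part was not tested. With TPM scaling 0 protein genes were above 1 at either age.

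Between Dlx2+/Dcx+ and Prom1+ cells the median difference over the protein genes was -0.24 at 1 month (all genes -0.01), with 7 of 12 lower, and -0.08 at 24 months (all genes -0.17), and no protein gene stood without overlap at either age on FPKM as deposited (at 1 month 1.6% of all genes higher and 2.12% lower, at 24 months 2.16% and 5.36%). Scaled to the sum outside the mitochondrial genome it was -0.46 at 1 month (all genes -0.12), with 11 of 12 lower. Below -1 at 1 month were mt-Nd6 (-1.54) and mt-Nd3 (-1.08), with 25.6% of all genes there and 20% above 1, and mt-Nd3 turned to 0.64 without Dlx2+/Dcx+ 1 month cell 5, while mt-Nd6 stood at -0.37 without cell 1. At 24 months mt-Nd3 (1.09) lay above 1 (18.9% of all genes), and mt-Nd6 (-1.48) and mt-Cytb (-1.05) below -1 (31.7%). mt-Nd6 turned to 0.53 without Dlx2+/Dcx+ 24 months cell 3, mt-Cytb stood at -0.30 without cell 2 of that group and mt-Nd3 at 0.45 without Prom1+ 24 months cell 2, and the median to 0.37 without Prom1+ 24 months cell 1. Beside these values the astrocyte list summed to 95.5 to 528 FPKM in Prom1+ cells of 24 months and 0.0747 to 12.9 in Dlx2+/Dcx+ cells, without overlap, and its part was not tested. The neuron list summed at 1 month to 0.0842 to 38.8 FPKM in Prom1+ cells and 125 to 316 in Dlx2+/Dcx+ cells, without overlap. At 24 months these overlapped, at 0.175 to 85.5 and 76.8 to 266 FPKM, and the part of that list was not tested.

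The respiratory chain complexes are built from mitochondrial and nuclear subunits together, so the members were set beside the 71 nuclear subunit genes of complexes I, III, IV and V. Per length, the summed FPKM of the mitochondrial protein genes was 0.361 to 0.746 times that of the nuclear genes (median 0.557). The young Gfap+ cells had ratios of 0.737 and 0.740, and the 5 of 24 months 0.450 to 0.625 (median 0.531). These did not overlap. In Prom1+ cells the ratio was 0.513 to 0.613 at 1 month and 0.361 to 0.746 at 24 months, and in Dlx2+/Dcx+ cells 0.526 to 0.588 and 0.418 to 0.631, both with overlap. The ratio is taken within a cell, so the scaling of cells does not enter it. The nuclear sum itself was 17758 to 17866 FPKM in the young Prom1+ cells and 13708 to 15186 at 24 months, without overlap.

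Of the 120 expressed nuclear partner genes, in Prom1+ cells 5 (4.17%) were higher and 8 (6.67%) lower at 24 months without overlap, beside 3.9% and 4.1% of all genes. In Gfap+ cells they were 8 (6.67%) and 4 (3.33%), beside 2.8% and 3.1%, and in Dlx2+/Dcx+ cells 1 (0.833%) and 3 (2.5%), beside 0.644% and 1.08%. Those named are the up to 3 with the largest age difference without overlap. In Prom1+ cells Uqcrb, a complex III subunit, was at 1.54 to 125 FPKM at 1 month and 204 to 299 at 24 months (3.98). Ndufv3 of complex I (-3.76) and Fastk, of the mitochondrial RNA-binding FASTK family (-3.62), were lower. In Gfap+ cells Uqcrh of complex III (5.56), Ndufa2 of complex I (5.52) and Dguok, a kinase that supplies DNA precursors (5.30, both young cells listed at 0), were higher. In Dlx2+/Dcx+ cells Ndufa1 of complex I (-3.63), Lrpprc, which stabilises mitochondrial mRNAs (-3.47), and Cox5b of complex IV (-1.76) were lower. The median over complex I subunits (36 genes) was -0.63, 0.53 and -0.49 in Prom1+, Gfap+ and Dlx2+/Dcx+ cells, and over complex V subunits (15 genes) -0.34, 0.26 and -0.82. Over complex III (9 genes) it was -0.65, 0.98 and 0.16, and over complex IV (11 genes) -0.27, 0.14 and -0.54. Over all genes it was 0, 0.16 and -0.14. In Gfap+ cells the summed FPKM of the 71 nuclear subunits was 16216 and 24551 at 1 month and 16904 to 29643 at 24 months, with overlap.

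In the tissue, 110 of the 132 nuclear partner genes were tested with limma on log2(FPKM + 1), 18 months against 3 weeks. In tissue, fewer cells of a type and less RNA per cell cannot be told apart. None passed an unadjusted p under 0.05 with an absolute log2 fold change above 1, where 3.9% of the 12287 genes tested did (479, of which 1.83% of all were higher and 2.07% lower), and no alternative with all 6 samples and the fold limit called any. At an unadjusted p under 0.05 with no fold limit there were 14, or 8 with higher and 6 with lower means at 18 months, against 24.3% of all genes, where 15.4% were higher and 8.93% lower. After Benjamini-Hochberg adjustment 0 of the 110 passed, beside 605 of the 12287 genes tested. Without the first sample of 18 months 3 of the 110 did, beside 613 of 11932 genes tested. They were Uqcrb (0.76, limma adjusted p = 0.0312), Atp5f1a (0.60, 0.0399) and the mitochondrial RNA polymerase gene Polrmt (-0.68, 0.0434). The median log2 fold change was 0.11, beside 0.09 for all genes. The largest, Uqcr10 of complex III (1.64), rested on 1 sample of 18 months at 80.4 FPKM against 5.44 and 6.19 in the others.

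Of all 110 partner genes tested, the ages did not overlap in 28 (25.5%), beside 33.1% of all genes tested. The 14 genes with an unadjusted p under 0.05 (12.7% of the 110) are named by role, and were chosen after their values were seen. Of 9 genes of mitochondrial transcription Tfam, which packages mitochondrial DNA and starts its transcription, was among the 14. It stood at 4.92 ± 0.79 FPKM at 3 weeks and 7.80 ± 1.31 at 18 months (SD, n = 3 each), a log2 fold change of 0.57 (SE 0.17, limma adjusted p = 0.127). Of 22 genes of mitochondrial RNA processing 3 (13.6%, below the 24.3% of all genes) were among the 14, with higher means: the methyltransferase gene Mrm1 (0.52) and 2 genes of the RNase P that cuts tRNA 5′ ends, Hsd17b10 (0.34) and Trmt10c (0.32). Of 11 genes of mtDNA upkeep and 8 regulators of mitochondrial biogenesis 0 were.

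Of the nuclear subunits, 3 of 8 tested in complex IV (37.5%, beside 24.3% of all genes) had an unadjusted p under 0.05. At that limit 8.93% of all genes were lower at 18 months. These 3 were also lower: Cox7c (-0.45), Cox6b1 (-0.43) and Cox6a1 (-0.36). In complex V the genes under that limit were Atp5mc1 (-0.71) and Atp5f1a (0.50) of 14. In complex III they were Uqcrb (0.56) and Uqcr11 (-0.45) of 8, and in complex I Ndufs3 (0.47), Ndufb5 (0.29) and Ndufv3 (-0.30) of 30. These are 14.3%, 25% and 10% of the genes tested, beside 24.3% of all genes. With all 6 samples none of these passed adjustment. The mitochondrial subunits of the same complexes were not analysed here in the tissue.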

How the data were processed

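Expression was measured in 22 single cells and 6 SVZ tissue samples. The authors deposited FPKM, with alignment to GRCm38 by HISAT2 and estimation by StringTie per the methods. The cell table has a Cufflinks-type header and its member values follow a Cufflinks-type effective length, so which tool made it is not settled, and the fragments below rest on that length. The submitters' processing notes also name featureCounts, and versions are not given in the sources used here. Members and gene lists were chosen with earlier results of these data known.

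Fragments of the members were recovered as FPKM times effective length, the Cufflinks-type sum over fragment lengths with mean 200, SD 80 and shortest fragment 48. The shortest length was chosen after seeing the data, from 40 to 56: at 48, 100% of 122 tRNA values were whole within 0.02, and at the others 50.8% to 60.7%. In nuclear genes of 1 transcript 69.2% to 75.4% of values per cell were whole. The totals this gives limit the precision of low values.

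Sequences, strands and positions came from GENCODE M21 on GRCm38. All 37 member loci overlapped it, and 86.7% of cell identifiers matched. Of the nuclear genes matched by identifier, only 12.8% had a deposited locus that overlapped the GENCODE M21 position. Which assembly the deposited nuclear loci follow is therefore not settled.

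Cells were compared by mean log2(FPKM + 1) with no test. Tissue was tested with limma 3.58.1 (R 4.3.3, trend) on log2(FPKM + 1) over the 12287 genes that reached an FPKM of 1 in 3 or more samples, with age as the only term. The recovery of fragments and the tissue test were checked on simulated data. The simulated fragments were made with the same effective lengths that the recovery used, so that check says nothing of those lengths. The labels do not say that the samples of an age came from separate animals, so p-values measure the spread between these samples. Python 3.11.15, numpy 2.4.6, pandas 2.3.3, scipy 1.17.1 and matplotlib 3.10.9 were used. Named were all protein and rRNA genes, tRNA genes with the highest median FPKM, partner genes as stated, and marker genes, of which 1 is not reported here. Alternatives were a pseudocount of 0.1, other scalings, fragments, medians, other filters and each sample left out. The planned tissue comparisons of the members were not run because the table lists 0 of them.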

Additional observations from a re-analysis of the deposited data

Results flagged for a closer look

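Of 48 combinations of a member measure and a group of 4 or 5 cells, 6 had a cell that stood apart from the rest of its group by Dixon's criterion, and chance flags about 1 in 20. mt-Nd6 in Gfap+ 24 months cell 2 was at 1107 FPKM against 1.29 to 21.1 in the other 4, and mt-Co2 in the same cell at 2680.2 FPKM against 941 to 1387. mt-Co1 in Dlx2+/Dcx+ 1 month cell 2 was at 1510.4 FPKM against 904 to 1069, and the summed protein genes of that cell took 1.14% of FPKM against 0.801% to 0.829%. mt-Rnr1 in Dlx2+/Dcx+ 1 month cell 1 was at 1570.3 FPKM against 2328 to 2521. mt-Rnr2 in Gfap+ 24 months cell 3 was at 11956 FPKM against 21312 to 24783.

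Cox5b, a nuclear subunit of complex IV, had age differences of opposite sign, 2.30 in Gfap+ and -1.76 in Dlx2+/Dcx+ cells, with no overlap of ages in either, among 146 genes compared. The difference between them, 4.07 on the log2(FPKM + 1) scale, was not tested.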

How the results depend on the processing

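For the cells, the protein genes' share of FPKM moved by more than the spread between cells in some groups. As a share of fragments it was 0.770% in Prom1+ and 1.25% in Gfap+ cells of 1 month. With tRNA and rRNA genes out of the denominator it was 1.35% in Prom1+ cells of 1 month, 1.38% and 0.968% in Gfap+ cells of 1 and 24 months, and 1.05% in Dlx2+/Dcx+ cells of 1 month. The median difference of Gfap+ from Prom1+ cells was -0.22 (1 month) and -0.11 (24 months) with TPM scaling (all genes -0.57 and -0.28) and -0.12 and -0.18 when scaled to FPKM outside the mitochondrial genome (all genes -0.64 and -0.35), and from Dlx2+/Dcx+ cells 0.13 and -0.25 with TPM scaling (all genes -0.52 and -0.03) and -0.24 at 24 months with the other (all genes -0.03). With that scaling Dlx2+/Dcx+ minus Prom1+ at 1 month was -0.46 (all genes -0.12). Over medians of cells, Dlx2+/Dcx+ minus Prom1+ at 24 months was 0.12. The cause was not tested. Pseudocount 0.1, fragments per 1000000, and mt-Nd3 and mt-Nd6 left out kept the direction of all 9 median differences.

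Leaving out 1 cell gave age medians of -0.64 to -0.26 in Prom1+, -0.69 to -0.24 in Gfap+ and -0.47 to 0.056 in Dlx2+/Dcx+ cells. For Gfap+ minus Prom1+ it gave 0.25 to 0.85 at 1 month and 0.21 to 0.67 at 24 months, for Gfap+ minus Dlx2+/Dcx+ 0.47 to 0.87 and -0.052 to 0.51 (the negative value without Dlx2+/Dcx+ 24 months cell 2), and for Dlx2+/Dcx+ minus Prom1+ -0.40 to -0.11 and -0.37 to 0.37 (0.37 without Prom1+ 24 months cell 1, 0.06 without Dlx2+/Dcx+ 24 months cell 2). Of single protein genes past the fold, those that turned were mt-Nd6 in Gfap+ with age (-3.90 to 1.62, the positive value without Gfap+ 1 month cell 2), mt-Nd6 in Gfap+ minus Prom1+ at 1 month (-5.00 to 0.51, positive without Gfap+ 1 month cell 1), mt-Nd3 in Dlx2+/Dcx+ minus Prom1+ at 1 month (-1.65 to 0.64, positive without Dlx2+/Dcx+ 1 month cell 5) and mt-Nd6 at 24 months (-3.05 to 0.53, positive without Dlx2+/Dcx+ 24 months cell 3). Below the fold many more turned, among them mt-Nd6 in Gfap+ minus Dlx2+/Dcx+ at 1 month (-3.47 to 2.05), in Dlx2+/Dcx+ with age (-1.53 to 1.64) and in Prom1+ with age (-1.33 to 1.14), and mt-Nd3 in Prom1+ with age (-1.14 to 0.49). The share of tRNA fragments in minus-strand genes was 78.6% without mt-Ts1 and 95.6% to 96.8% without any 1 cell.

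In the tissue, 14 partner genes were called with no fold limit. With the fold limit kept, 0 or 1 were called without 1 sample, the 1 being Endog without the third sample of 18 months. In that fit 409 of 11933 genes tested were called. The number under an unadjusted p of 0.05 was 5 to 32 of 110 without 1 sample. The 5, without the second sample of 3 weeks, stood beside 2035 of 12039 genes tested. The 32, without the first sample of 18 months, stood beside 3263 of 11932, and 3 of them passed adjustment, beside 613. The replicate block gave 6 under that limit and 0 calls, beside 2092 and 505 of 12287 genes. Same-numbered samples did not deviate together (correlations of -0.10, -0.01 and -0.10). With 3 samples per age this cannot show whether the number pairs samples. The planned tissue comparisons of the members were not run, and in the tissue, where no member is listed, scaling outside the mitochondrial genome equals TPM scaling. For low genes, such as mt-Te, mt-Nd3 and mt-Nd6, depth limits what a 0 can show.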
